A study of Sus scrofa with 6 samples.

Results

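The extracellular matrix genes and their receptors and proteases were followed in 6 samples of pig cells with the Affymetrix Pig Genome Array. A gene was a member if a probe set (the group of probes that the array reads as one value) carried exactly 1 platform symbol and that symbol named a numbered collagen, a laminin chain, an integrin alpha or beta chain, a numbered matrix metalloproteinase (MMP), a tissue inhibitor of metalloproteinases (TIMP) or an ADAMTS protease. The rule found 79 probe sets for 45 genes, out of 6765 genes with 1 symbol. No difference between samples entered the rule, but for the 21 members with more than 1 probe set the one with the highest mean over the 6 arrays was used, a mean that includes the arrays compared. The members were 7 fibrillar collagens, 8 network and other collagens, 3 laminin chains, 7 integrin alpha chains, 5 integrin beta chains, 8 MMPs, 4 TIMPs and 3 ADAMTS proteases. The laminins were beta and gamma chains, and 0 laminin alpha chains were among the named probe sets.

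There were 4 induced pluripotent stem (iPS) cell lines and 2 somatic samples, with 1 array each. The labels separate the iPS lines by stage-specific embryonic antigens (SSEA), surface glycans used as stem cell markers. The lines PS24 (positive for SSEA1, SSEA3 and SSEA4) and 30AC5 (positive for SSEA1) are called SSEA1-labelled here, and iPSCs-w and iPF4-2, positive for SSEA3 and SSEA4, are called SSEA3/SSEA4-only. PEF is a culture of porcine embryo fibroblasts, and PAFSC is a culture of porcine amniotic fluid stem cells, which the labels class as somatic. All samples were grown in DMEM with 15% FBS. The iPS lines were kept on mitotically inactive mouse embryonic fibroblasts, and the labels do not say whether these were removed before RNA extraction, so their contribution was not tested. The sources used here do not give the reprogramming factors of each line.

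Collagens form the fibrils and networks of the matrix, and laminins with type IV collagen form the basement membrane on which epithelial cells rest. Integrins are receptors of 1 alpha and 1 beta chain that hold cells to these proteins. MMPs and ADAMTS proteases cut matrix proteins, and TIMPs block MMPs. Fibroblasts are a main source of fibrillar collagen, and loss of mesenchymal genes is a known step of reprogramming to pluripotency.

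The values are log2 values relative to an unknown baseline of each probe set, so they can be compared between arrays for one gene but not between genes. Each line was 1 sample and repeated cultures are not stated. A p-value thus covers only the variation between the different lines or cell types pooled in a group, which may in part be technical. Against both somatic samples this includes the gap between PEF and PAFSC. Values without a line's name are in the order PS24, 30AC5, iPSCs-w and iPF4-2. The PAFSC array stood apart, with an SD of 2.01 over 23999 probe sets, against 0.61 to 0.81 on the other 5, and a median of 0.70, against -0.06 to 0.05. On this array genes of cell types that the sample is not labelled as also lay high: the 5 measured of 7 blood cell markers had a median of 2.27 and the 7 endothelial markers of 2.05, against -0.20 and -0.18 in PEF. Many results with PAFSC are therefore given without it too, and the differences of some genes are given with PAFSC only. In PS24 the 5' minus 3' values of the control genes were -1.43 to -2.03, against -0.21 to 0.64 in the other 3 iPS lines and -0.40 to 0.69 in PEF. In PAFSC they were 3.66 and -0.93 for the 2 GAPDH pairs, 2.72 for actin and -0.70 for EF1A. The part of these values in any result was not tested. POU5F1, the gene of the pluripotency factor OCT4, was 0.07 in PS24, -0.07 in 30AC5, 3.61 in iPSCs-w and 3.68 in iPF4-2, against -0.50 in PEF and 1.09 in PAFSC.

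The first comparison set the iPS lines against the somatic samples. The mean of the 4 iPS lines was lower than that of the 2 somatic samples for 41 of 45 members, with a median difference of -1.16, beside -0.26 over all 6765 genes. Against PEF alone it was lower for 28 of 45, with a median of -0.55, beside 0.17 over all genes. All 4 iPS lines lay below both somatic samples for 17 members, or 37.8% of them, beside 10.3% of all genes. They lay at least 1 log2 unit below both for 9 members (20.0%), beside 2.01% of all genes. These 9 were COL1A2, COL5A1, COL5A2, COL6A2, COL6A3, ITGA8, MMP1, MMP14 and TIMP3. With the arrays brought to one distribution by quantile normalization the 9 became 2, beside 0.90% of all genes. With each array centred on its median they became 5, beside 1.24%. All 4 iPS lines lay above both somatic samples for 1 member, MMP20, beside 15.6% of all genes, and with PAFSC left out for 8 members (17.8%), beside 35.9%.

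In limma (two-sided, Benjamini-Hochberg adjustment over 23999 probe sets, threshold 0.05) 0 of 45 members passed against both somatic samples. The same test called 0.0167% of all probe sets lower and 0.00833% higher in the iPS lines. At an unadjusted p under 0.05 there were 16 members (35.6%), beside 13.7% of all probe sets. With 1 somatic sample left out, the remaining one was assumed to vary like the iPS lines. Against PAFSC alone, the array with the wide spread, 26 members were then called lower (57.8%), beside 38.9% of probe sets, and 1 higher, ITGB1, beside 20.7%. Against PEF alone 4 members fell (8.89%), beside 0.513% of probe sets called lower. These were COL1A2, COL15A1, MMP1 and TIMP3, each on the probe set in use, and the other probe sets of the members were not counted. None of the 45 was called higher against PEF, where 0.0542% of probe sets were. All 4 iPS lines lay below PEF for 23 members (51.1%), beside 18.8% of all genes, and at least 1 unit below it for 16 (35.6%), beside 4.48%. Below PAFSC they lay for 35 members (77.8%), beside 50.0%, and above it for 3, beside 33.0%. In bulk RNA a smaller share of cells that express a gene and less RNA per cell cannot be told apart.

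**Figure D1:**
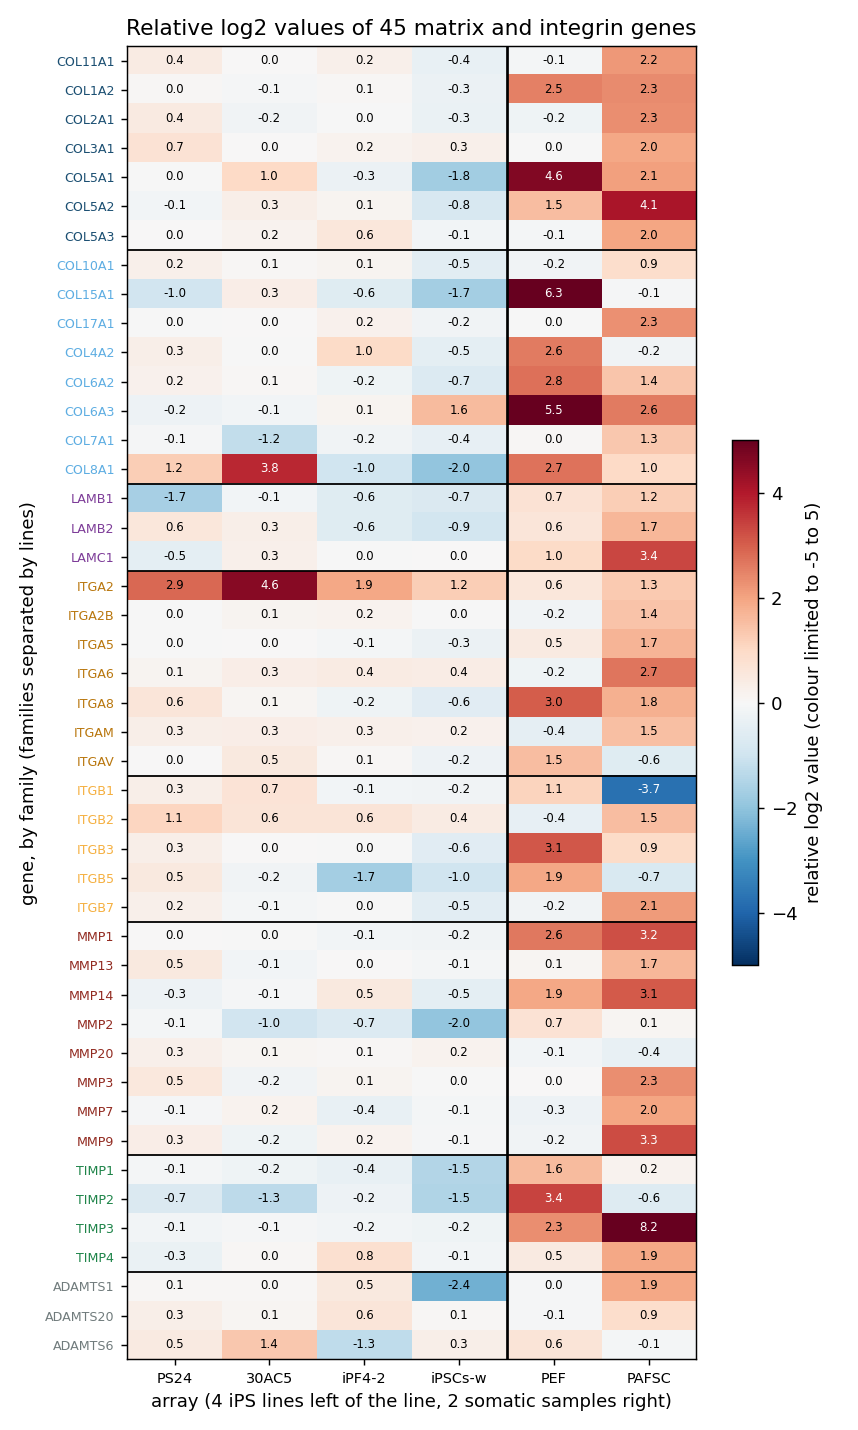
Relative log2 values of the 45 members (rows, grouped by family) on the 6 arrays (columns, 4 iPS lines left of the thick line, PEF and PAFSC right of it), with the value printed in each cell. COL15A1 stood at 6.32 in PEF and TIMP3 at 8.20 in PAFSC, and ITGA2 at 4.55 in 30AC5.

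The fibrillar collagens are the rope-forming collagens of connective tissue. On the probe sets in use, the iPS lines lay below PEF for COL1A2, COL5A1 and COL5A2 and near it for the other 4. COL1A2, the second chain of type I collagen and a main product of fibroblasts, was 0.05 in PS24, -0.07 in 30AC5, -0.29 in iPSCs-w and 0.06 in iPF4-2, against 2.51 in PEF and 2.35 in PAFSC. The iPS lines stayed within 0.35 of each other and at least 2.28 below both somatic samples. COL1A2 differed by -2.49 (SE 0.44, limma adjusted p = 0.144) from both, and against PEF alone it fell by 2.57 log2 units (SE 0.27, limma adjusted p = 0.0362). The second COL1A2 probe set differed by -2.42 from both somatic samples and by -1.91 from PEF. COL5A1, a chain of type V collagen, which starts fibril assembly, was -0.03 in PS24, 0.98 in 30AC5, -1.76 in iPSCs-w and -0.30 in iPF4-2, against 4.61 in PEF and 2.06 in PAFSC. All iPS lines lay below both somatic samples, but they were spread over 2.73 units, with iPSCs-w lowest. The difference was -3.61 (SE 0.91, limma adjusted p = 0.226) against both and -4.89 (SE 0.97, limma adjusted p = 0.141) against PEF. COL5A2, the second type V chain, was -0.13, 0.28, -0.78 and 0.13 in the iPS lines, against 1.53 in PEF and 4.07 in PAFSC, with a difference of -2.92 (SE 0.73, limma adjusted p = 0.225); here the gap was larger to PAFSC than to PEF.

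On the probe sets in use, the remaining fibrillar collagens were high on the PAFSC array only. COL2A1, the main collagen of cartilage, was 0.45, -0.17, -0.33 and -0.03 in the iPS lines, against -0.20 in PEF and 2.33 in PAFSC. COL11A1, a minor cartilage fibril chain, was 0.42, 0.01, -0.36 and 0.25 in the iPS lines, against -0.09 in PEF and 2.17 in PAFSC. COL3A1, the type III collagen of soft tissues, was 0.72, 0.01, 0.26 and 0.18 in the iPS lines, against -0.003 in PEF and 1.95 in PAFSC, and COL5A3, the third type V chain, was 0.03, 0.16, -0.15 and 0.59 in the iPS lines, against -0.09 in PEF and 1.97 in PAFSC. For all 4 PEF lay within or just under the iPS lines, and PAFSC lay 1.23 or more above each of them. Their differences from both somatic samples ran from -1.09 to -0.68 and from PEF alone from 0.17 to 0.29. COL3A1 changed sign after quantile normalization, and all 4 changed sign without PAFSC on the probe sets in use. On another probe set PEF lay above every iPS line for COL5A3, at 0.87, and for COL11A1, at 0.19. Their differences from PEF there were -1.10 and -0.60, while the third COL5A3 probe set differed by 0.50. The family median was -1.09, beside 0.17 against PEF alone.

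The network and other collagens held the largest gap to PEF among the 45 members. COL15A1, a collagen at the edge of basement membranes, was -0.96 in PS24, 0.34 in 30AC5, -1.68 in iPSCs-w and -0.59 in iPF4-2, against 6.32 in PEF and -0.08 in PAFSC. PEF lay far above every other array, while PAFSC lay within the iPS lines. Against PEF alone COL15A1 fell by 7.04 log2 units (SE 0.74, limma adjusted p = 0.0351), and the difference from both somatic samples was -3.84 (SE 1.49, limma adjusted p = 0.339). COL6A3, the large chain of the type VI microfibrils around cells, was -0.24 in PS24, -0.12 in 30AC5, 1.57 in iPSCs-w and 0.12 in iPF4-2, against 5.52 in PEF and 2.58 in PAFSC. Its highest iPS line, iPSCs-w, was 1.01 below PAFSC and 3.95 below PEF, and the difference was -3.72 (SE 0.88, limma adjusted p = 0.200), or -5.19 (SE 0.74, limma adjusted p = 0.0705) from PEF. COL6A2, a smaller type VI chain, was 0.22, 0.07, -0.70 and -0.21 in the iPS lines, against 2.76 in PEF and 1.37 in PAFSC, with a difference of -2.22 (SE 0.57, limma adjusted p = 0.231), or -2.92 (SE 0.41, limma adjusted p = 0.0705) from PEF. Both type VI chains thus lay below both somatic samples in every iPS line and missed the threshold.

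COL4A2, a chain of the type IV collagen of basement membranes, was 0.29, -0.02, -0.49 and 0.98 in the iPS lines, against 2.58 in PEF and -0.16 in PAFSC. It was high in PEF only, with a difference of -2.39 (SE 0.57, limma adjusted p = 0.196) from it. COL8A1, a short-chain network collagen of vessel walls and the cornea, was 1.23 in PS24, 3.78 in 30AC5, -1.99 in iPSCs-w and -0.99 in iPF4-2, against 2.70 in PEF and 0.99 in PAFSC. The iPS lines spanned both somatic samples, with 30AC5 above PEF, and the difference of -1.34 (SE 1.45, limma adjusted p = 0.571) was within that spread. COL7A1, the collagen that anchors the epidermis, was -0.05, -1.24, -0.43 and -0.17 in the iPS lines, against 0.05 in PEF and 1.34 in PAFSC, where PEF was 0.10 above the highest iPS line. COL17A1, a transmembrane collagen of epithelial attachment sites, was -0.03, 0.0022, -0.19 and 0.22 in the iPS lines, against -0.002 in PEF and 2.30 in PAFSC, and COL10A1, a collagen of hypertrophic cartilage, was 0.25, 0.07, -0.51 and 0.12 in the iPS lines, against -0.17 in PEF and 0.88 in PAFSC. These 2 were highest in PAFSC and did not separate the iPS lines from PEF. The family median was -1.25, and -2.29 against PEF alone.

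The 3 laminin chains lay below both somatic samples in all 4 iPS lines, with PEF the nearer of both. LAMB1, the beta chain common in early embryos, was -1.67 in PS24, -0.15 in 30AC5, -0.74 in iPSCs-w and -0.62 in iPF4-2, against 0.72 in PEF and 1.22 in PAFSC, a difference of -1.77 (SE 0.56, limma adjusted p = 0.297). PS24 was the lowest line, and PEF lay 0.87 above the highest. LAMC1, the gamma chain of most laminins, was -0.48 in PS24, 0.27 in 30AC5, 0.02 in iPSCs-w and -0.02 in iPF4-2, against 0.97 in PEF and 3.36 in PAFSC, a difference of -2.22 (SE 0.69, limma adjusted p = 0.289). LAMB2, the beta chain of mature muscle and kidney basement membranes, was 0.57 in PS24, 0.29 in 30AC5, -0.93 in iPSCs-w and -0.62 in iPF4-2, against 0.59 in PEF and 1.66 in PAFSC, a difference of -1.29 (SE 0.62, limma adjusted p = 0.391). PS24 reached 0.57 there and so lay 0.01 below PEF. The 3 differences from PEF alone were -1.52, -1.02 and -0.76, with limma adjusted p-values of 0.393, 0.348 and 0.709.

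The probe sets of the laminins went apart on the PAFSC array. The 4 probe sets of LAMC1 ran there from -5.52 to 3.36, a range of 8.87, and the one in use was the highest. On the same 4 the iPS minus PEF difference was -1.02, -0.90, -0.62 and -0.83, while the difference from both somatic samples was negative on 2 and positive on 2. For LAMB1 the second probe set was -3.14 in PAFSC, which turned the difference from both somatic samples to 0.17, while against PEF it was -1.94. The direction against PEF was thus the same on each probe set of LAMB1 and LAMC1, and the direction against both somatic samples was not.

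Of the integrin alpha chains, 1 had a higher mean in the iPS lines than in either somatic sample. ITGA2, which with ITGB1 forms a collagen receptor of epithelial cells and platelets, was 2.85 in PS24, 4.55 in 30AC5, 1.22 in iPSCs-w and 1.92 in iPF4-2, against 0.56 in PEF and 1.32 in PAFSC. All 4 iPS lines lay above PEF, and 3 of 4 above PAFSC, with 30AC5 highest. The difference was 1.70 (SE 0.88, limma adjusted p = 0.411), or 2.08 (SE 1.23, limma adjusted p = 0.585) from PEF, within the spread between lines. The second ITGA2 probe set was nearly flat in the iPS lines, at 0.42, 0.49, 0.23 and 0.49, against -0.01 in PEF and 2.31 in PAFSC, and its difference from both somatic samples was negative, at -0.74.

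ITGA8, the partner of ITGB1 in a receptor known from kidney development, ran the other way. It was 0.61 in PS24, 0.11 in 30AC5, -0.58 in iPSCs-w and -0.22 in iPF4-2, against 3.02 in PEF and 1.78 in PAFSC. Every iPS line lay at least 1.17 below both somatic samples. The difference was -2.42 (SE 0.57, limma adjusted p = 0.202), or -3.04 from PEF. All 3 of its probe sets were lower in the iPS lines, with differences of -3.04, -4.67 and -5.34 from PEF. The probe set in use thus had the smallest of the 3 gaps to PEF. ITGAV, the alpha chain of the vitronectin receptors, was 0.03, 0.51, -0.25 and 0.05 in the iPS lines, against 1.54 in PEF and -0.59 in PAFSC, so that PEF was highest and PAFSC lowest, and its difference from PEF was -1.46 (SE 0.35, limma adjusted p = 0.206). ITGA5, the alpha chain of the fibronectin receptor, was -0.02, 0.02, -0.29 and -0.10 in the iPS lines, against 0.45 in PEF and 1.72 in PAFSC, below both somatic samples in all iPS lines, with a difference of -1.18 (SE 0.52, limma adjusted p = 0.366). The second ITGA5 probe set was -1.13, -0.41, -1.78 and -0.66 in the iPS lines, against 1.04 in PEF and 1.09 in PAFSC. The difference from PEF was -0.55 on the probe set in use and -2.04 on the second.

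On the probe sets in use, the other alpha chains were above PEF and below PAFSC in every iPS line. ITGA6, the alpha chain of laminin receptors and a marker of many stem cells, was 0.14, 0.34, 0.38 and 0.43 in the iPS lines, against -0.23 in PEF and 2.67 in PAFSC. ITGAM, an alpha chain of leukocytes, was 0.30, 0.32, 0.21 and 0.26 in the iPS lines, against -0.44 in PEF and 1.51 in PAFSC, and ITGA2B, the alpha chain of the platelet fibrinogen receptor, was -0.02, 0.12, -0.01 and 0.16 in the iPS lines, against -0.17 in PEF and 1.42 in PAFSC. Their differences from PEF were 0.55, 0.72 and 0.23, with limma adjusted p-values of 0.483, 0.334 and 0.770. Against both somatic samples these 3 differences were negative, and ITGAM was positive with centred arrays, ITGAM and ITGA2B after quantile normalization. On the second ITGAM probe set PEF, at -0.11, lay inside the range of the iPS lines, and the difference from PEF was 0.05. The family median was -0.56 against both somatic samples and 0.23 against PEF alone.

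Among the beta chains, 3 were highest in PEF and below it in every iPS line. ITGB3, the beta chain of the platelet receptor and of a vitronectin receptor, was 0.29 in PS24, 0.04 in 30AC5, -0.56 in iPSCs-w and -0.04 in iPF4-2, against 3.09 in PEF and 0.94 in PAFSC. The iPS lines lay 2.80 or more below PEF and 0.65 or more below PAFSC, and the difference was -2.08 (SE 0.66, limma adjusted p = 0.297), or -3.16 (SE 0.38, limma adjusted p = 0.0518) from PEF. ITGB5, another beta partner of ITGAV, was 0.51, -0.18, -0.98 and -1.68 in the iPS lines, against 1.93 in PEF and -0.75 in PAFSC, with PAFSC inside the range of the iPS lines. Its difference from PEF was -2.51 (SE 0.83, limma adjusted p = 0.329). ITGB1, the beta chain shared by most matrix receptors, was 0.30 in PS24, 0.68 in 30AC5, -0.18 in iPSCs-w and -0.15 in iPF4-2, against 1.10 in PEF and -3.72 in PAFSC. PEF was 0.42 above the highest iPS line, and PAFSC was the lowest array by 3.54, so the sign of the difference was positive with PAFSC (1.47) and negative without it (-0.94).

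The other beta chains belong to leukocyte receptors and were highest in PAFSC. ITGB2, the partner of ITGAM, was 1.07, 0.64, 0.43 and 0.64 in the iPS lines, against -0.42 in PEF and 1.54 in PAFSC, above PEF in every iPS line by 1.11 (SE 0.33, limma adjusted p = 0.281). ITGB7, a beta chain of gut-homing lymphocytes, was 0.24, -0.10, -0.51 and -0.0026 in the iPS lines, against -0.16 in PEF and 2.14 in PAFSC, with PEF inside the iPS lines and PAFSC above them. Seen as pairs, ITGAV, ITGB3 and ITGB5, which form vitronectin receptors, were all highest in PEF. ITGAM and ITGB2, which form 1 leukocyte receptor, were both lowest in PEF and highest in PAFSC on the probe sets in use. On the second ITGAM probe set iPSCs-w was lower than PEF, at -0.38 against -0.11.

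The metalloproteinases held members high in both somatic samples and members high in PAFSC only. MMP1, the interstitial collagenase, which cuts fibrillar collagen, was 0.02 in PS24, -0.0035 in 30AC5, -0.17 in iPSCs-w and -0.13 in iPF4-2, against 2.65 in PEF and 3.22 in PAFSC. The iPS lines stayed within 0.19 of each other, at -0.07 ± 0.09 (SD, n = 4), and 2.63 or more below both somatic samples. MMP1 differed by -3.003 (SE 0.45, limma adjusted p = 0.103) from both, and against PEF alone it fell by 2.72 log2 units (SE 0.25, limma adjusted p = 0.0298). MMP14, the membrane protease that activates MMP2, was -0.26 in PS24, -0.06 in 30AC5, -0.50 in iPSCs-w and 0.50 in iPF4-2, against 1.93 in PEF and 3.07 in PAFSC. The gap to PEF was 1.42 or more, and the difference was -2.57 (SE 0.54, limma adjusted p = 0.181), or -2.004 (SE 0.43, limma adjusted p = 0.162) from PEF. MMP2, a gelatinase of mesenchymal cells, was -0.08 in PS24, -0.96 in 30AC5, -1.98 in iPSCs-w and -0.67 in iPF4-2, against 0.72 in PEF and 0.08 in PAFSC. It was below both somatic samples in every line, but PS24 was 0.17 below PAFSC, and the difference was -1.32 (SE 0.61, limma adjusted p = 0.380).

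MMP9, the second gelatinase, was 0.34, -0.20, -0.07 and 0.18 in the iPS lines, against -0.17 in PEF and 3.27 in PAFSC. MMP3, a stromelysin, was 0.55, -0.17, -0.04 and 0.14 in the iPS lines, against 0.0046 in PEF and 2.34 in PAFSC, MMP7, the matrilysin of epithelia, was -0.07, 0.18, -0.10 and -0.37 in the iPS lines, against -0.25 in PEF and 1.96 in PAFSC, and MMP13, a collagenase of cartilage and bone, was 0.49, -0.14, -0.11 and 0.02 in the iPS lines, against 0.08 in PEF and 1.68 in PAFSC. On the probe sets in use, these 4 were high on the PAFSC array only, and PEF lay inside the range of the iPS lines. The second MMP13 probe set was 0.49 in PAFSC, against 0.53 in PS24. On another MMP3 probe set PEF, at 0.21, lay above every iPS line. MMP20, an enamel protease, was 0.26, 0.08, 0.16 and 0.08 in the iPS lines, against -0.14 in PEF and -0.35 in PAFSC, the 1 member above both somatic samples in every iPS line. Its margin was 0.22, and its difference was 0.40 (SE 0.44, limma adjusted p = 0.577). The family median was -1.19 against both somatic samples and 0.05 against PEF alone.

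All 4 TIMPs had a lower mean in the iPS lines than in either somatic sample. TIMP3, the inhibitor that binds to the matrix, was -0.14 in PS24, -0.07 in 30AC5, -0.23 in iPSCs-w and -0.15 in iPF4-2, against 2.33 in PEF and 8.20 in PAFSC. PAFSC was far above PEF, and the iPS lines stayed within 0.16 of each other, at -0.15 ± 0.06 (SD, n = 4). Against PEF alone TIMP3 fell by 2.48 log2 units (SE 0.24, limma adjusted p = 0.0347), and the difference from both somatic samples, which differed by -5.86 (PEF minus PAFSC), was -5.41 (SE 1.32, limma adjusted p = 0.216). The other 2 TIMP3 probe sets were 3.59 and 0.29 in PEF and 5.42 and 2.79 in PAFSC, and their differences from PEF were -3.69 and -0.26.

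TIMP2, which inhibits MMP2 and also takes part in its activation, was -0.72 in PS24, -1.30 in 30AC5, -1.49 in iPSCs-w and -0.24 in iPF4-2, against 3.38 in PEF and -0.64 in PAFSC. PEF was 3.62 above the highest iPS line, and PAFSC was inside the iPS range, with a difference of -4.31 (SE 0.53, limma adjusted p = 0.0523) from PEF. The second TIMP2 probe set was -2.12, -1.24, -1.41 and -1.30 in the iPS lines, against 1.03 in PEF and 1.79 in PAFSC, so both somatic samples lay above every iPS line there and PAFSC was the higher of them. TIMP1, an inhibitor secreted by many cells, was -0.10 in PS24, -0.23 in 30AC5, -1.46 in iPSCs-w and -0.36 in iPF4-2, against 1.57 in PEF and 0.18 in PAFSC. It was below both somatic samples in every line, by 1.68 or more for PEF and 0.29 or more for PAFSC, with a difference of -1.42 (SE 0.62, limma adjusted p = 0.366). TIMP4, an inhibitor best known from the heart, was -0.35, 0.04, -0.13 and 0.80 in the iPS lines, against 0.47 in PEF and 1.93 in PAFSC, and iPF4-2 lay above PEF.

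For 0 of the 3 ADAMTS proteases did all iPS lines lie on one side of both somatic samples. ADAMTS1, which cuts the proteoglycans aggrecan and versican, was 0.07 in PS24, 0.04 in 30AC5, -2.39 in iPSCs-w and 0.49 in iPF4-2, against -0.04 in PEF and 1.95 in PAFSC. iPSCs-w was low on both ADAMTS1 probe sets, at -2.39 and -2.06. ADAMTS6 was 0.47, 1.36, 0.31 and -1.25 in the iPS lines, against 0.63 in PEF and -0.11 in PAFSC, and ADAMTS20, known from mouse coat pigmentation, was 0.28, 0.10, 0.08 and 0.61 in the iPS lines, against -0.08 in PEF and 0.89 in PAFSC. The differences from both somatic samples were -1.40, -0.04 and -0.14, and those of ADAMTS6 and ADAMTS20 were positive with centred arrays.

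**Figure D2:**
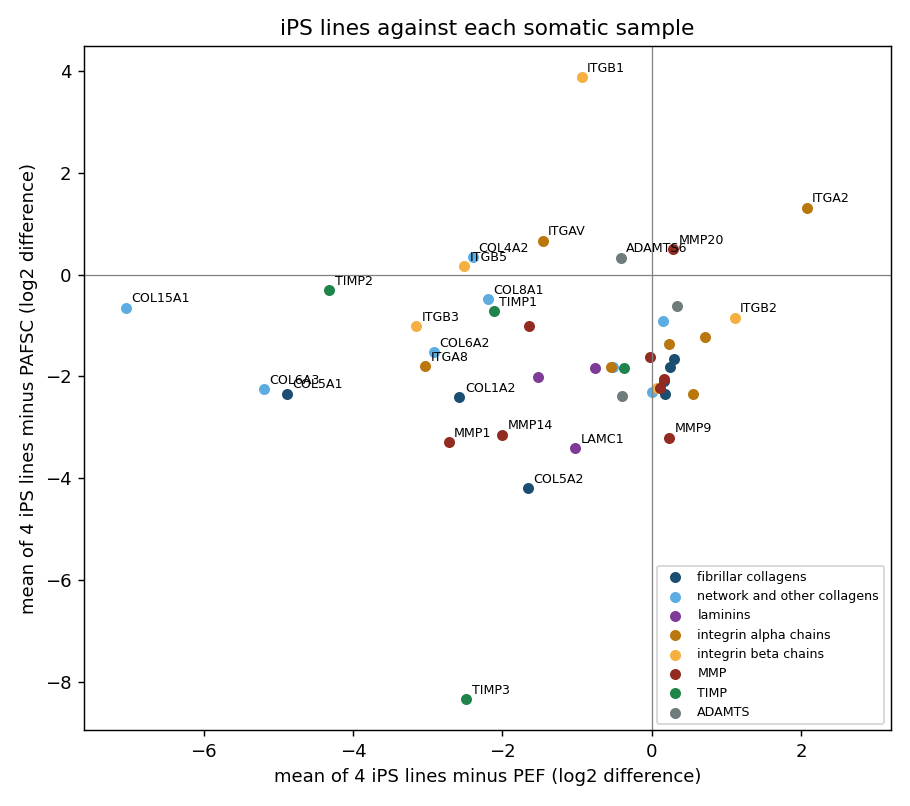
Mean of the 4 iPS lines minus PEF (horizontal) and minus PAFSC (vertical), as log2 differences, with 1 point per member coloured by family. COL15A1 lay furthest left at -7.04 and TIMP3 lowest at -8.35, ITGB1 lay highest at 3.89, and a group of members near 0 against PEF lay below 0 against PAFSC.

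PEF and PAFSC, with 1 array each, were set side by side without a test. PEF was more than 1 log2 unit above PAFSC for 13 members (28.9%), beside 27.1% of all genes, and more than 1 below it for 24 (53.3%), beside 42.9%. The first share was near that of all genes. Among the members with PEF above PAFSC were COL15A1 with a gap of 6.39, ITGB1 with 4.83, TIMP2 with 4.02, COL6A3 with 2.94 and COL4A2 with 2.74. The order for TIMP2 was the opposite on its second probe set, at 1.03 in PEF and 1.79 in PAFSC. Those with PEF below PAFSC included TIMP3 with -5.86, MMP9 with -3.44, ITGA6 with -2.90 and COL5A2 with -2.54. PEF was the highest of the 6 arrays for 14 members (31.1%), beside 11.4% of all genes, and PAFSC for 27 (60.0%), beside 47.2%. The 14 were COL1A2, COL4A2, COL5A1, COL6A2, COL6A3, COL15A1, ITGA8, ITGAV, ITGB1, ITGB3, ITGB5, MMP2, TIMP1 and TIMP2.

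For the 21 members with several probe sets, the median range over the probe sets of a gene was 1.12 on the PAFSC array and 0.39 to 0.58 on the other 5. Over all 2261 such genes it was 1.72 on PAFSC. All probe sets of a member gave one sign against both somatic samples for 17 of 21, the exceptions being LAMB1, LAMC1, ITGA2 and ADAMTS1. Against PEF alone they did so for 13 of 21, except COL5A1, COL5A3, COL8A1, COL11A1, ITGB7, MMP3, MMP13 and TIMP4. Between the SSEA1-labelled lines and the others they also did so for 13 of 21, except COL1A2, COL5A2, COL5A3, COL17A1, LAMC1, MMP3, TIMP3 and TIMP4. The widest range on PEF was that of COL5A1, 4.86, where 2 of 6 probe sets, at 4.61 and 2.97, lay above the other 4, which ran from -0.25 to 0.29. Those 2 also gave the lowest differences from PEF, -4.89 and -3.24, against -0.43 to 0.34 for the other 4.

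**Figure D3:**
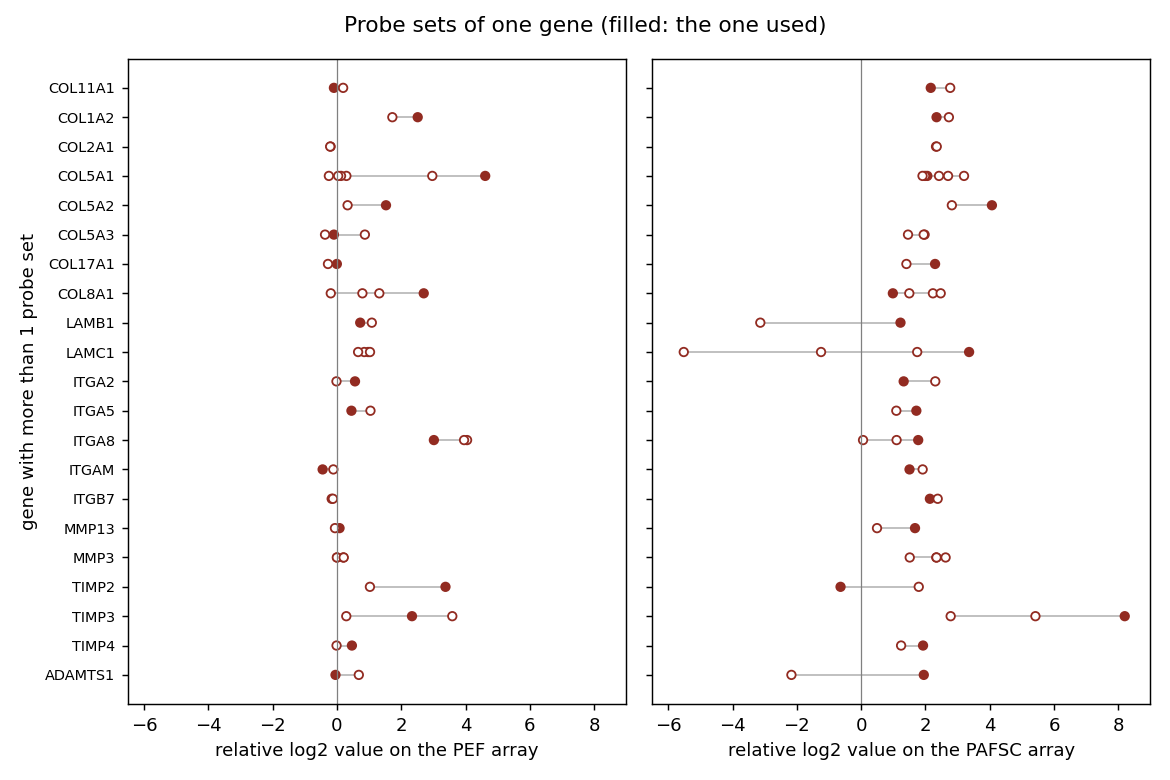
Relative log2 values of every probe set of the 21 members with more than 1, on the PEF array (left panel) and the PAFSC array (right panel), with the probe set in use filled and a grey line over the range. LAMC1 ran from -5.52 to 3.36 on PAFSC, and COL5A1 from -0.25 to 4.61 on PEF.

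The second comparison was between the SSEA1-labelled lines, PS24 and 30AC5, and the lines labelled with SSEA3 and SSEA4 only, iPSCs-w and iPF4-2. The mean of the SSEA1-labelled lines was higher for 32 of 45 members, with a median difference of 0.22, beside -0.02 over all genes. Both SSEA1-labelled lines lay above both others for 17 members (37.8%), beside 19.8% of all genes, and below both for 2 (4.44%), COL6A3 and ITGA6, beside 22.2%. In limma, fitted on the 4 iPS lines, 0 of 45 members passed, where 0.0167% of all probe sets did. At an unadjusted p under 0.05 there were 4 members, COL8A1, LAMB2, ITGA2 and ITGB5 (8.89%), beside 11.1% of all probe sets. The counts moved with single lines, and so did the shares of all genes. Members above were 22 without PS24, 28 without 30AC5, 33 without iPF4-2 and 18 without iPSCs-w, beside 32.5%, 36.1%, 36.7% and 30.7% of all genes. Members below were 7, 6, 2 and 12 in the same order, beside 37.3%, 37.4%, 37.6% and 35.8%.

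The integrin chains made up 8 of the 17. ITGB5, at 0.51 in PS24, -0.18 in 30AC5, -0.98 in iPSCs-w and -1.68 in iPF4-2, had a difference of 1.495 (SE 0.39, limma adjusted p = 0.301). ITGA2 measured 2.85 in PS24 and 4.55 in 30AC5, against 1.22 in iPSCs-w and 1.92 in iPF4-2, and differed by 2.13 (SE 0.63, limma adjusted p = 0.341). The second ITGA2 probe set differed by 0.09. ITGB1 measured 0.30 in PS24 and 0.68 in 30AC5, against -0.18 in iPSCs-w and -0.15 in iPF4-2, a difference of 0.66 (SE 0.27, limma adjusted p = 0.478). The others were ITGA8 at 0.76, ITGB3 at 0.46, ITGB2 at 0.32, ITGA5 at 0.19 and ITGAM at 0.08. On their other probe sets ITGA8 differed by 0.13 and 0.09, ITGA5 by 0.45 and ITGAM by 0.09. The classes overlapped on each of these other probe sets. All 5 beta chains had a positive difference, with a median of 0.46, and 5 of 7 alpha chains did, with a median of 0.19. ITGA6 ran the other way, at 0.14 and 0.34 in the SSEA1-labelled lines, against 0.38 and 0.43 in the other lines, a gap of 0.04 between the nearest lines. Among the 8 integrin chains that lay above, this gap was 0.002 for ITGB2, 0.04 for ITGAM, 0.07 for ITGB3 and 0.08 for ITGA5. It was largest for ITGA2, at 0.93.

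Of the matrix proteins, COL8A1 had the largest difference, 3.99 (SE 0.90, limma adjusted p = 0.244). It measured 1.23 in PS24 and 3.78 in 30AC5, against -1.99 in iPSCs-w and -0.99 in iPF4-2, so the classes were 2.21 apart while PS24 and 30AC5 differed by 2.56. Its other 3 probe sets differed by 1.98, 1.41 and 0.18. LAMB2 differed by 1.21 (SE 0.28, limma adjusted p = 0.2502), with 0.57 and 0.29 in the SSEA1-labelled lines, against -0.93 and -0.62 in the other lines. COL5A1 differed by 1.503 (SE 0.61, limma adjusted p = 0.472) and COL6A2 by 0.60 (SE 0.29, limma adjusted p = 0.556), both without overlap. The other COL5A1 probe sets differed by 1.36, 0.15, 0.07, 0.07 and 0.0008. COL6A3 lay lower in the SSEA1-labelled lines, at -1.02 (SE 0.52, limma adjusted p = 0.575), with iPSCs-w highest at 1.57.

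Among the proteases and inhibitors MMP1, MMP7, TIMP1, TIMP3 and ADAMTS6 were among the 17 without overlap, with differences of 0.16, 0.29, 0.75, 0.09 and 1.39. The gaps between the nearest lines of the 2 classes were 0.13, 0.03, 0.13, 0.02 and 0.16 in the same order. TIMP3 differed by -0.22 and -0.35 on its other probe sets. ADAMTS6 measured 0.47 in PS24 and 1.36 in 30AC5, against 0.31 in iPSCs-w and -1.25 in iPF4-2, and had a limma adjusted p of 0.512. The MMP median was 0.15 and the TIMP median -0.03. Marker genes of other cells also differed between these classes: the 10 measured of 12 epithelial genes had a median of -0.10 in PS24 and 0.18 in 30AC5, against 2.01 in iPSCs-w and 2.19 in iPF4-2. The part of these cell types in the differences of the members was not tested.

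**Figure D4:**
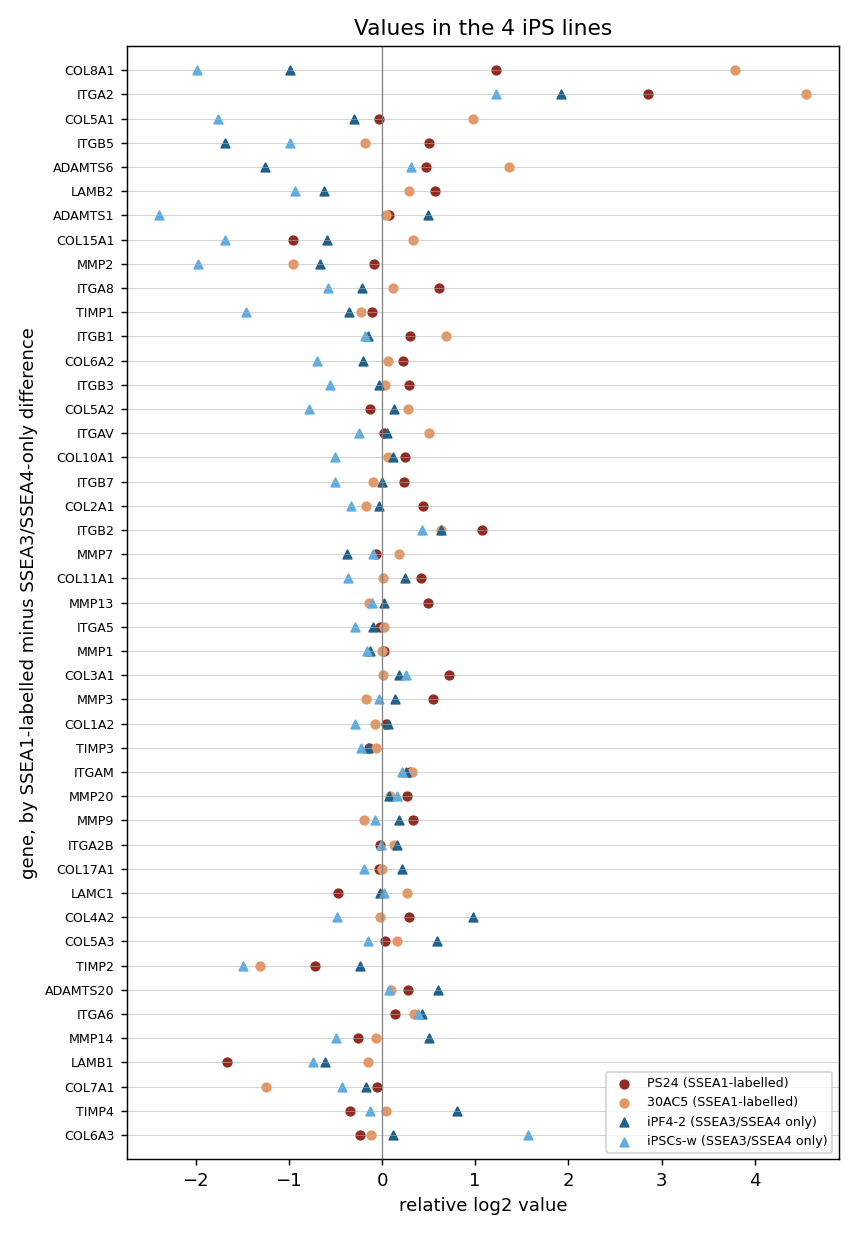
Relative log2 values of the 45 members in the 4 iPS lines, with circles for the SSEA1-labelled lines PS24 and 30AC5 and triangles for the SSEA3/SSEA4-only lines iPF4-2 and iPSCs-w, ordered by the difference between the classes. COL8A1 and ITGA2 at the top differ by 3.99 and 2.13, COL6A3 at the bottom by -1.02, and the lowest symbol of most rows is the light triangle of iPSCs-w.

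A single line stood out across the members. iPSCs-w was the lowest of the 4 iPS lines for 30 members (66.7%), beside 28.1% of all genes. It was lowest for 12 of 15 collagens and 9 of 12 integrin chains, for 3 of 8 MMPs and for 3 of 4 TIMPs. The median of the members was -0.29 in iPSCs-w, against 0.14 in PS24, 0.04 in 30AC5 and 0.02 in iPF4-2, while the median of all genes was 0.03 in iPSCs-w. Members lowest in this line included ADAMTS1 at -2.39, COL8A1 at -1.99, MMP2 at -1.98, COL5A1 at -1.76, COL15A1 at -1.68, TIMP2 at -1.49 and TIMP1 at -1.46. COL6A3 at 1.57 was the 1 member highest in iPSCs-w. The 11 measured of 13 fibroblast markers had a median of -0.69 in iPSCs-w, against 0.06 in PS24, -0.02 in 30AC5 and 0.07 in iPF4-2, and their part in the member values was not tested. With 1 array per line this has no test.

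**Figure D5:**
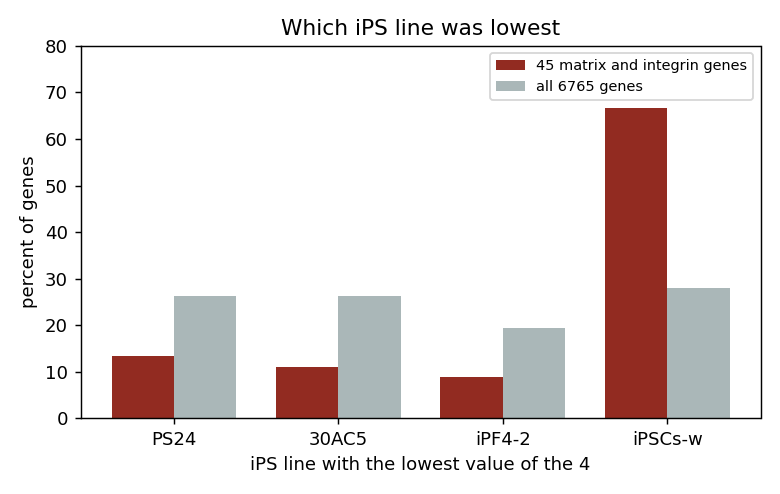
Percent of genes for which each iPS line had the lowest value of the 4, for the 45 members (red) and for all 6765 genes (grey). iPSCs-w was lowest for 66.7% of members, against 28.1% of all genes.

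Within the SSEA3/SSEA4-only class iPF4-2 was more than 1 log2 unit above iPSCs-w for 9 members (20.0%), beside 4.51% of all genes, and more than 1 below it for 2, COL6A3 and ADAMTS6 (4.44%), beside 5.87%. The 9 were COL4A2, COL5A1, COL8A1, COL15A1, MMP2, MMP14, TIMP1, TIMP2 and ADAMTS1, with gaps from 1.00 for MMP14 to 2.88 for ADAMTS1. iPF4-2 also had higher values of DCN, LUM and POSTN, matrix genes of fibroblasts, at 2.34, 3.77 and 3.01, against -1.05, -0.69 and -0.48 in iPSCs-w. These 3 were the highest in iPF4-2 of the 11 measured fibroblast markers, whose median there was 0.07. The others ran in iPF4-2 from -3.77 for PRRX1 to 0.58 for S100A4. Within the SSEA1-labelled class PS24 was more than 1 below 30AC5 for COL5A1, COL8A1, COL15A1, LAMB1 and ITGA2 (11.1%), beside 7.38%, and more than 1 above it for COL7A1 (2.22%), beside 3.39%. 30AC5 was the highest of the 4 lines for 14 members (31.1%), beside 21.7% of all genes.

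Genes that work with the members were read from 4 lists, with the 3 of each that differed most from the somatic samples named. Of 26 collagen processing and crosslinking genes 12 were measured, with a median difference of -1.18 from both somatic samples and -1.14 from PEF, and limma called 0 of them against both and 1 against PEF. That 1 was LOXL1, an enzyme that cross-links elastin and collagen, at -1.76, -1.63, -2.96 and -2.02 in the iPS lines, against 3.03 in PEF and 1.70 in PAFSC. Against PEF it fell by 5.13 log2 units (SE 0.56, limma adjusted p = 0.0370). PLOD1 and PLOD3, which hydroxylate collagen lysines, differed by -2.01 (SE 0.63, limma adjusted p = 0.291) and -1.75 (SE 0.52, limma adjusted p = 0.277) from both. From PEF alone they differed by -1.11 and -1.39. Between the SSEA1-labelled lines and the others 11 of 12 had a positive difference, with a median of 0.56 and 0 called.

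Of 21 basement membrane and adhesive glycoproteins 11 were measured, with 0 called against both somatic samples. The median difference was -1.01 from both somatic samples and -0.67 from PEF. FN1, fibronectin, was 0.42, -0.67, -2.86 and 0.86 in the iPS lines, against 4.59 in PEF and 0.88 in PAFSC. TNC, tenascin C, was -0.33, 0.12, -1.55 and 1.36 in the iPS lines, against 5.80 in PEF and 2.28 in PAFSC, and SDC2, a syndecan, was 0.11, 1.81, -1.74 and -1.09 in the iPS lines, against 3.65 in PEF and 1.55 in PAFSC. All 3 were highest in PEF, with differences of -3.30 (SE 1.25, limma adjusted p = 0.337), -4.14 (SE 1.07, limma adjusted p = 0.233) and -2.82 (SE 1.02, limma adjusted p = 0.335) from both. From PEF alone they differed by -5.15, -5.90 and -3.88.

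Of 24 genes of integrin adhesion sites 11 were measured, with 0 called against both somatic samples. The median difference was -1.01 from both somatic samples and -1.30 from PEF. TLN1, talin, which links integrins to actin, differed by -2.29 (SE 0.54, limma adjusted p = 0.198), CAV1, caveolin, by -1.83 (SE 0.69, limma adjusted p = 0.337), and CD9, a tetraspanin, by 1.81 (SE 0.54, limma adjusted p = 0.277) from both. From PEF alone they differed by -1.83, -1.65 and 1.23. CD9 was 1.12, 0.76, 0.37 and 0.25 in the iPS lines, against -0.61 in PEF and -1.77 in PAFSC, above both somatic samples in every line. Of 25 other matrix proteases and inhibitors 16 were measured, with a median of -0.91, and 0 were called against both somatic samples and 2 against PEF. These 2 were SERPINB2, at -2.90 (SE 0.31, limma adjusted p = 0.0362), and SERPINE2, at -3.35 (SE 0.35, limma adjusted p = 0.0351), both inhibitors of plasminogen activators, and SERPINE2 was chosen after its value was seen. PLAU, the urokinase, was -1.22, 0.39, 0.76 and -0.39 in the iPS lines, against 5.07 in PEF and 1.42 in PAFSC, and CTSB, a cathepsin, was -0.08, -0.01, 0.01 and 0.28 in the iPS lines, against 1.02 in PEF and -5.77 in PAFSC. From PEF alone the median difference of the 16 proteases and inhibitors was -0.49. Over the same contrasts limma called 0.513% of all probe sets lower against PEF.

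Markers of fibroblasts were read beside the members. The 11 measured had a median of 0.06 in PS24, -0.02 in 30AC5, -0.69 in iPSCs-w and 0.07 in iPF4-2, against 4.45 in PEF and 2.10 in PAFSC, and their mean was lower in the iPS lines than in the somatic samples for 11 of 11. Against PEF alone the mean of the iPS lines was lower for 10 of 11, and for PDGFRB it was 0.31 higher. S100A4 and THBS2 were called lower against PEF, and S100A4 also against both somatic samples. The 4 measured of 6 mesenchymal stem cell surface genes had a median of 1.16 in PEF and 1.23 in PAFSC. How far the share of mesenchymal cells enters the values of the 45 members was not tested.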

How the data were processed

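Per the labels' protocols, biotin-labelled RNA of each of the 6 samples was read on 1 Affymetrix Pig Genome Array. The deposited table holds relative log2 values of 24123 probe sets with 0 missing. The sources used here do not give the authors' background correction, summarization, normalization or baseline. Precision is limited by the number of arrays. The 124 array controls were left out, and 23999 probe sets were tested in limma 3.58.1 (R 4.3.3, two-sided moderated test after lmFit and eBayes, p-values adjusted by Benjamini-Hochberg across all of them, threshold 0.05). The test was also run on simulated data in which each probe set had the same spread on every array. That check does not cover an array with a wider spread than the others, such as PAFSC.

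The iPS against somatic fit used all 6 arrays (4 residual degrees of freedom, or 3 without PAFSC), and the SSEA1 fit the 4 iPS lines (2). Single arrays were compared by log2 differences over 1, without a test. Symbols came from the platform annotation, and all 45 members had the same symbol in the RefSeq gene table. The share of all genes used 1 probe set per gene, chosen like that of the members. By the rule for named genes, every member of a family of at most 8 is given. Members and lists were chosen with earlier results of these data known. Alternatives were quantile normalization, median centring, leaving out the lowest 40% of probe sets by mean, averaged probe sets of a gene, 1 probe set per gene in the fit, eBayes with a trend, 3 classes over all 6 arrays, and each sample left out. The setting without both PAFSC and PS24 was chosen after seeing the data.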

Additional observations from a re-analysis of the deposited data

Results flagged for a closer look

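Of the 45 members tested for a single line far from the other 3 among the iPS lines, 1 stood out, and chance alone would mark about 5% of them. ADAMTS1 was -2.39 in iPSCs-w, against 0.04 to 0.49 in PS24, 30AC5 and iPF4-2. Its second probe set was -2.06 in iPSCs-w, against 0.18 to 0.92 in the same 3 lines.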

How the results depend on the processing

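Scaling moved the median difference of all genes from the somatic samples, which was -0.26 as deposited, 0.02 after quantile normalization and 0.04 with centred arrays. The median of the 45 members was -1.16, -0.72 and -0.86 in these settings, and -0.66 without PAFSC and PS24; leaving out 1 sample gave -1.81 to -0.55. Quantile normalization gave family medians of -0.48 for fibrillar collagens, -0.93 for other collagens, -0.11 and -0.49 for alpha and beta integrins and -0.80 for MMPs. Centred arrays gave -0.79, -0.95 and -0.26 for fibrillar collagens, other collagens and alpha integrins, -0.89 for MMPs and 0.16 for ADAMTS. Averaging a gene's probe sets gave -1.43 for fibrillar collagens and -0.80 for laminins. Leaving out the lowest 40% gave -1.05 for MMPs and -3.26 for TIMPs. Without PAFSC and PS24 the medians were 0.019 for fibrillar collagens, -2.43 for other collagens, -1.01 for laminins, 0.26 for alpha integrins, -0.091 for MMPs, -2.37 for TIMPs and -0.50 for ADAMTS. Leaving out 1 sample gave -2.34 to 0.17 for fibrillar collagens, -2.29 to -1.13 for other collagens, -2.02 to -1.02 for laminins, -1.35 to 0.23 for alpha integrins, -2.13 to 0.050 for MMPs, -2.30 to -1.28 for TIMPs and -0.62 to -0.077 for ADAMTS, and each sign change came without PAFSC. For the SSEA1-labelled minus SSEA3/SSEA4-only medians, leaving out 1 line gave 0.073 to 0.42 for all members, -0.032 to 0.48 for fibrillar collagens, -0.098 to 0.64 for other collagens, -0.48 to 0.53 for laminins, -0.051 to 0.23 for MMPs, -0.36 to 0.30 for TIMPs and -0.42 to 0.99 for ADAMTS. The laminin median was 0.55 without the lowest 40% and 0.30 with averaged probe sets, and the alpha integrin median 0.36 after quantile normalization. The beta integrin medians kept their sign in every setting run.

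Against both somatic samples limma called 6 probe sets, 35 without the lowest 40% (1 member, MMP1), 2 with a trend, 1 with centred arrays, and 0 with averaged probe sets, with 1 probe set per gene or without PAFSC and PS24; leaving out 1 sample gave 0 to 14303 probe sets and 0 to 27 members, both highest without PEF, when the wide PAFSC array stood alone. In the SSEA1 comparison it called 4, 58 without the lowest 40%, 90 after quantile normalization, 8 with a trend, 2 with centred arrays, 1 with averaged probe sets or 1 probe set per gene, and 0 with 3 classes or with any 1 line left out (0 to 0); 0 were members in each. Members below both somatic samples were 17 to 35 with 1 sample left out, beside 12.0% to 50.0% of all genes. Members above were 5 after quantile normalization, 2 with centred arrays and 8 without PAFSC and PS24, beside 12.5%, 16.9% and 42.2% of all genes. With 1 sample left out they were 1 to 8, beside 16.7% to 35.9%. With 1 line left out, SSEA1-labelled lines lay above for 18 to 33 members, beside 30.7% to 36.7% of all genes. They lay below for 2 to 12, beside 35.8% to 37.6%, and below for 1 after quantile normalization, beside 23.0%. The 9 members at least 1 below both somatic samples were 2 after quantile normalization and 5 with centred arrays, beside 0.90% and 1.24%. Quantile normalization also left 6 members with PEF more than 1 below PAFSC, beside 17.9% of all genes. It left 4 with PS24 more than 1 above 30AC5, beside 9.11%. Averaged probe sets left 3 with PS24 more than 1 below 30AC5, beside 6.76%. The causes of these changes were not tested. The counts of members at least 1 below PEF (13 to 18) and of members lowest in iPSCs-w (26 to 34) stayed within 1.5 times. Beside them the shares of all genes were 3.74% to 5.65% and 26.1% to 36.7%. No paired analysis was possible because the labels carry no replicate numbers that groups share.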
